A study of Mus musculus with 6 samples.

Results

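The genes described here are the nuclear-encoded subunits of the mitochondrial respiratory chain and of ATP synthase, in mouse C2C12 cells before and after their differentiation into myotubes. Members were taken by symbol, as every gene row named *Nduf* followed by a, b, c, s or v and a digit, *Ndufab1*, *Sdha* to *Sdhd*, or any symbol starting with *Uqcr*, *Cox4* to *Cox8* or *Atp5*, and symbols with the pseudogene mark -ps were left out. This gave 90 of 54525 gene rows, with 39 of complex I, 4 of complex II, 8 of complex III, 21 of complex IV and 18 of complex V. *Ndufa4* and *Ndufa4l2* were placed with complex IV, where the NDUFA4 protein resides despite its name. The rule uses symbols alone.

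The respiratory chain sits in the inner mitochondrial membrane and passes electrons from NADH and succinate to oxygen. Complexes I, III and IV pump protons as they do so, and complex V, the ATP synthase, uses the resulting gradient to make ATP. Complexes I, III, IV and V each include proteins read from the mitochondrial genome, whereas most of their subunits, and all of complex II, are encoded in the nucleus. Several subunits of complex IV, cytochrome c oxidase, exist as a broadly expressed isoform and as an isoform found in heart and skeletal muscle, which contract on a steady supply of ATP.

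RNA sequencing covered 6 libraries of wild-type, untreated C2C12 cells, an immortalized line derived from mouse leg muscle: 3 cultures of proliferating myoblasts, named D0, and 3 cultures of myotubes after 5 days of differentiation, named D5. Myoblasts grew in medium with fetal bovine serum, and differentiation was started by a change to horse serum. The cultures come from a cell line without nerve, blood vessels or mature fibres, and p-values measure the spread among 3 cultures of that line. Because each library is a bulk extract, fewer cells of a type and less RNA per cell cannot be told apart.

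Counts on genes per library ran from 36555048 to 40895840 at D0 and from 25449759 to 25811300 at D5. Markers followed the labels: 7 of 7 myotube markers, such as *Myog*, *Ckm* and *Myh3*, were called higher at D5 with a median log2 fold change of 8.30, and 5 of 5 proliferation markers were called lower with a median of -4.91. Of 4 myoblast markers, *Myod1*, *Myf5* and *Pax7* fell and *Des*, which encodes the muscle filament protein desmin, rose. CPM are counts per 1000000 of library size, after that size is adjusted by the TMM scaling described below. Adipocyte markers were listed because *Cox7a1* and *Cox8b* are also known from brown fat. The summed level of these markers was at most 0.333 CPM in every library, with 4 of 6 at 3 counts or fewer in all 6. Summed CPM of the 4 osteoblast markers reached at most 0.322, and of the 4 macrophage markers 1.85 to 3.39. Nearly all of the macrophage sum was *Cd68* (means of 3.15 and 2.23 CPM), with at most 1 count for *Ptprc* and *Adgre1*. The 3 endothelial markers summed to 2.46 to 2.97 CPM at D0 and 0.325 to 0.402 CPM at D5. At D0 nearly all of that was *Kdr* (mean 2.50 CPM), beside 0.141 CPM for *Pecam1*. The 4 cardiac markers summed to 4.81 to 5.66 CPM at D0 and 27.7 to 33.9 CPM at D5. Most of the D5 sum came from *Myh6*, a cardiac myosin heavy chain, at a mean of 26.7 CPM, and *Tnni3* was also called higher. *Nkx2-5*, most of the D0 sum, was called lower, with means of 4.62 CPM at D0 and 2.48 CPM at D5. *Nppa* had at most 2 counts in a library.

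Most subunit mRNAs took a larger share of the transcriptome in myotubes. Of the 80 subunits with enough counts to be tested, 77 were higher at D5, 2 were lower (*Cox6a1* and *Cox8a*) and 1 had no call (*Atp5g2*), by edgeR's quasi-likelihood test with Benjamini-Hochberg adjustment over 16290 genes and a threshold of 0.05. Across all genes tested, 42.2% were called higher and 40.8% lower, so the differences between these groups of cultures were spread over the whole transcriptome. The median log2 fold change was 0.79 over the subunits and 0.0022 over all genes. The 3 D5 libraries were all above the 3 D0 libraries in CPM for 77 subunits, against 42.2% of all genes, and all below them for 2, against 41.1%. A log2 fold change above 1, a doubling, was reached by 23 subunits with a call, against 19.3% of all genes. Each D5 library showed the shift, with medians of 0.77, 0.81 and 0.78 for its log2 ratio to the D0 mean. All these values use TMM scaling, which sets the bulk of genes level between libraries. With the ERCC spike-ins as the scale, 4 of 80 subunits were called higher and 0 lower, against 11.1% and 23% of all genes, so the count of higher calls was below the share of all genes. Of the 80, 59 had a positive log2 fold change and the median was 0.24. That scale moved the median of all genes to -0.58, so the subunits stood 0.82 above it, compared with 0.79 under TMM. A change of scale moves all genes by nearly the same amount, so the likeness of these 2 offsets is no separate support.

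**Figure D1:**
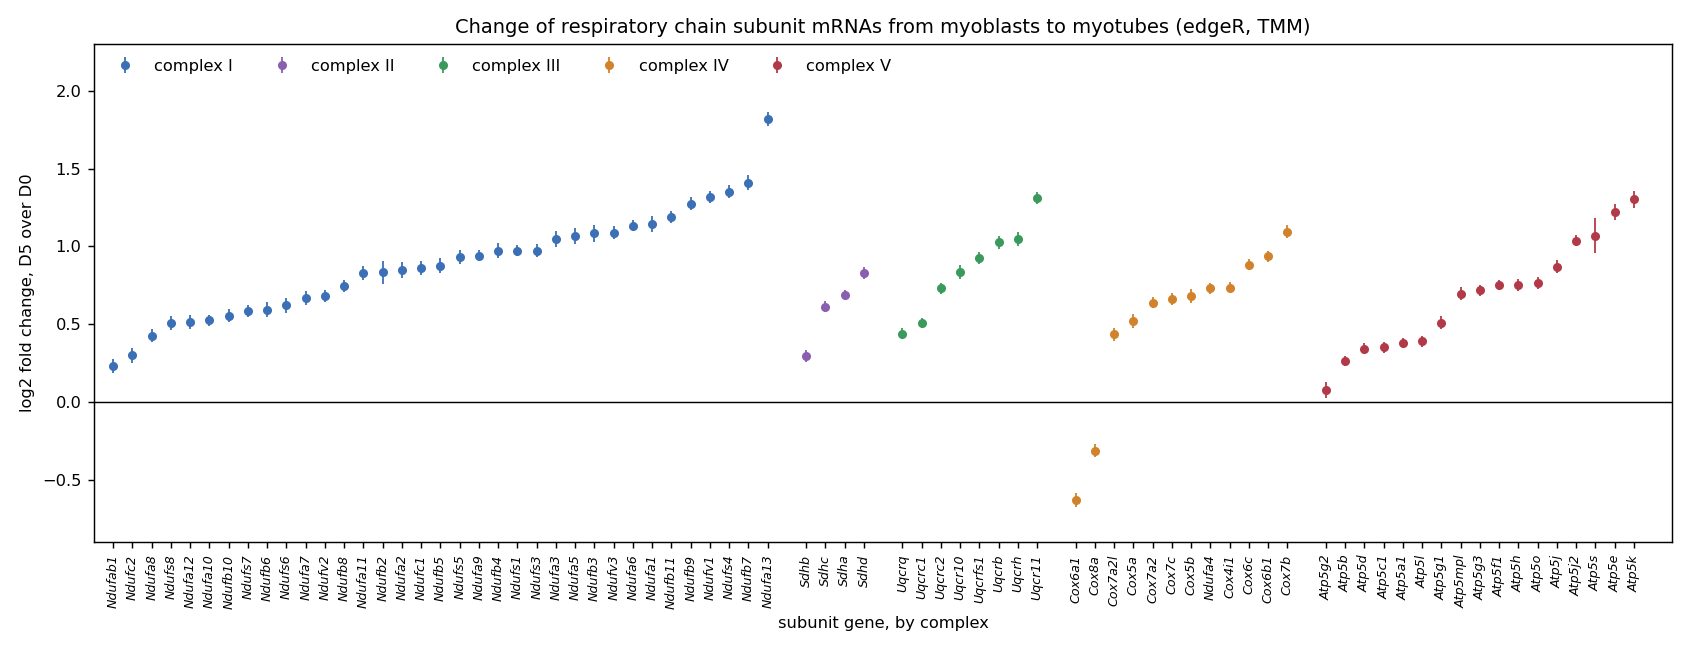
Each point is the log2 fold change of a subunit mRNA at D5 over D0 (vertical axis) with its standard error as a bar, ordered within complexes I to V (horizontal axis) under TMM scaling, 3 libraries a group. Of 76 subunits drawn (1 tested complex I subunit is not drawn), *Cox6a1* and *Cox8a* lie below 0 and *Ndufa13* is the highest at 1.82, while the muscle isoforms *Cox6a2*, *Cox7a1* and *Cox8b* (5.05 to 9.86) are left off the scale.

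Summed over all members, subunits took 0.848% ± 0.0274 of the counts on genes at D0 and 1.25% ± 0.0130 at D5 (SD, n = 3 each). By complex, the sums in CPM at D0 and D5 were 1879 ± 69.9 and 3496 ± 72.0 for complex I and 437 ± 13.02 and 681 ± 7.91 for complex II. Complex III went from 683 ± 31.5 to 1211 ± 14.4, complex IV from 1423 ± 64.1 to 2260 ± 30.5 and complex V from 3823 ± 133 to 5273 ± 52.7. The groups did not overlap in any of these sums. Leaving out *Cox6a2*, *Cox7a1* and *Cox8b*, the complex IV sum at D5 was 2135 ± 19.3 CPM, still above every D0 library.

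The largest rises were those of the muscle isoforms of complex IV, shown here with the promoters of the genes concerned. *Cox8b* (chromosome 7, 140898945 to 140900446, minus strand), *Cox6a2* (chromosome 7, 128205435 to 128206387, minus strand) and *Cox7a1* (chromosome 7, 30184144 to 30186078, plus strand) are given in GRCm38 coordinates. The sequences below run from 250 bases before to 50 bases after the start that RefSeq gives on GRCm38.p6, on the strand of the gene. For *Cox7a1*, *Cox7a2* and *Cox6a1* that start differs from the GENCODE one behind the gene coordinates. They are chosen to set muscle isoforms beside their broadly expressed partners. Capitals mark the letters found by a search for CAGCTG (an E-box of the kind bound by myogenic factors), TATAAA (the TATA box), CCGGAAG (the core bound by ETS factors such as GABP), and CGCANGCGC (bound by NRF1) on both strands. In *Cox6a1*, 2 of the NRF1 matches overlap each other on opposite strands. Of the muscle isoforms, *Cox8b* (chr7:140900397-140900696) and *Cox7a1* (chr7:30183921-30184220) had an entry.
Cox8b: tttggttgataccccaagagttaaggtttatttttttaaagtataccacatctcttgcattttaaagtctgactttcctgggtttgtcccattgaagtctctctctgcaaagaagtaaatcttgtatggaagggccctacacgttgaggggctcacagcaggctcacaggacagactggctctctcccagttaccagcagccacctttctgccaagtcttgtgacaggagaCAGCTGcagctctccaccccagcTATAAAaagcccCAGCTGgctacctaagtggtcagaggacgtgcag
Cox7a1: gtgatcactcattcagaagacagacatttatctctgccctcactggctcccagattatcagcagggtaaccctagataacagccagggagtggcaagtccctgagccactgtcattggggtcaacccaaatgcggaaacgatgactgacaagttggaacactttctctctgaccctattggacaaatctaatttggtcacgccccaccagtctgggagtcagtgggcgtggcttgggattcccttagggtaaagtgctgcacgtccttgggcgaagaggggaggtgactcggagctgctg
Among the broadly expressed partners, *Cox8a* lies at chr19:7217567-7217866, *Cox7a2* at chr9:79759804-79760103 and *Cox6a1* at chr5:115348909-115349208, all on the minus strand.
Cox8a: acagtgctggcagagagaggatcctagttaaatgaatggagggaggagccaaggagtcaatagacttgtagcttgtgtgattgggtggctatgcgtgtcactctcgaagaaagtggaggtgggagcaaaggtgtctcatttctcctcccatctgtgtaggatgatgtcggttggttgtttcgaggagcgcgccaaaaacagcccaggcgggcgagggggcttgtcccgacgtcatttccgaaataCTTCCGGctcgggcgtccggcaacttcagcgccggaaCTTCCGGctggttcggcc
Cox7a2: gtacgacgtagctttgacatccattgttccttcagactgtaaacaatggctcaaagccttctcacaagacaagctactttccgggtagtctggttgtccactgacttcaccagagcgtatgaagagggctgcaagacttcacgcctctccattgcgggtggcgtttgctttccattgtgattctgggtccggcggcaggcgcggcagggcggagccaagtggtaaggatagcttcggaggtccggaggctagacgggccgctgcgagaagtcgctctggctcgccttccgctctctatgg
Cox6a1: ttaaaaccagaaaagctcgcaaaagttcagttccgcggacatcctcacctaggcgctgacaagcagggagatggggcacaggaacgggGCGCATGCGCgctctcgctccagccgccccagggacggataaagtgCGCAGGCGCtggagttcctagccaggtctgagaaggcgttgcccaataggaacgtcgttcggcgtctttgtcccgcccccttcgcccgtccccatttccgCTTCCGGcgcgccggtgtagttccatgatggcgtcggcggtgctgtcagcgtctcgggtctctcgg
The *Cox8b* window held 2 E-box matches, with a TATA box match between them, and 2 CpG dinucleotides, the fewest among 67 tested subunits with a promoter entry. In *Cox7a1* none of the searched letters occurred and there were 7 CpG dinucleotides. *Cox8a* held 2 ETS matches and 19 CpG dinucleotides, *Cox7a2* no match and 20, and *Cox6a1* 3 NRF1 matches, 1 ETS match and 32.

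*Cox8b*, the muscle isoform of subunit VIII, went from 3 counts or fewer per library at D0 to a level near that of its partner *Cox8a* per exonic length. In CPM, which is not divided by length, it stayed below *Cox8a* at D5, with means of 50.3 and 93.0. Its counts were 3, 2 and 1 in the D0 libraries and 1135, 1322 and 1292 in the D5 libraries. In CPM these were 0.0801, 0.0476 and 0.0248 at D0 and 45.2, 53.7 and 51.9 at D5. No D0 library came near any D5 library. All D0 counts lay within the floor of 3 counts taken as not detected, and against that floor the D5 mean was at least 667 times higher. Taken at face value, the summed counts, scaled by library, gave a ratio of 1003 (95% counting interval 460 to 2734, exact binomial, counting error only). The fitted log2 fold change was 9.86 ± 0.15 (SE, edgeR adjusted p = 4.4e-31), a size that depends on the prior count at so low a start.

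*Cox6a2*, the heart and muscle isoform of subunit VIa, was the runner-up. It measured 0.721, 0.833 and 0.323 CPM at D0 and 60.2, 75.5 and 64.0 CPM at D5. The log2 fold change was 6.72 ± 0.12 (SE, edgeR adjusted p = 2.5e-29), with the lowest D5 library far above the highest D0 library. Of its exonic length, 10.3% overlaps *Itgad* on the other strand, and whether reads were counted by strand is not given in the sources used here. *Cox7a1*, the muscle isoform of subunit VIIa, rose from 0.134, 0.309 and 0.323 CPM at D0 to 9.36, 8.81 and 7.84 CPM at D5. Its log2 fold change was 5.05 ± 0.19 (SE, edgeR adjusted p = 6.7e-21), again without overlap of the groups. None of the 50-base stretches of the transcripts of these 3 genes occurred in another gene.

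The partners of *Cox6a2* and *Cox8b* were the only subunits called lower under TMM scaling. *Cox6a1* measured 158, 151 and 145 CPM at D0 and 88.1, 105 and 101 CPM at D5, a log2 fold change of -0.63 ± 0.05 (SE, edgeR adjusted p = 9.0e-14). *Cox8a* measured 125, 109 and 112 CPM at D0 and 92.8, 89.1 and 97.2 CPM at D5, a log2 fold change of -0.31 ± 0.04 (SE, edgeR adjusted p = 1.1e-07). The D5 libraries of both genes all stayed under the lowest D0 library. With ERCC scaling their log2 fold changes were -1.17 (adjusted p = 0.0661) and -0.90 (adjusted p = 0.172). *Cox7a2*, the partner of *Cox7a1*, moved the other way, from 97.2, 92.6 and 89.0 CPM to 141, 146 and 147 CPM, a log2 fold change of 0.64 ± 0.04 under TMM and 0.07 with ERCC scaling (adjusted p = 0.926).

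**Figure D2:**
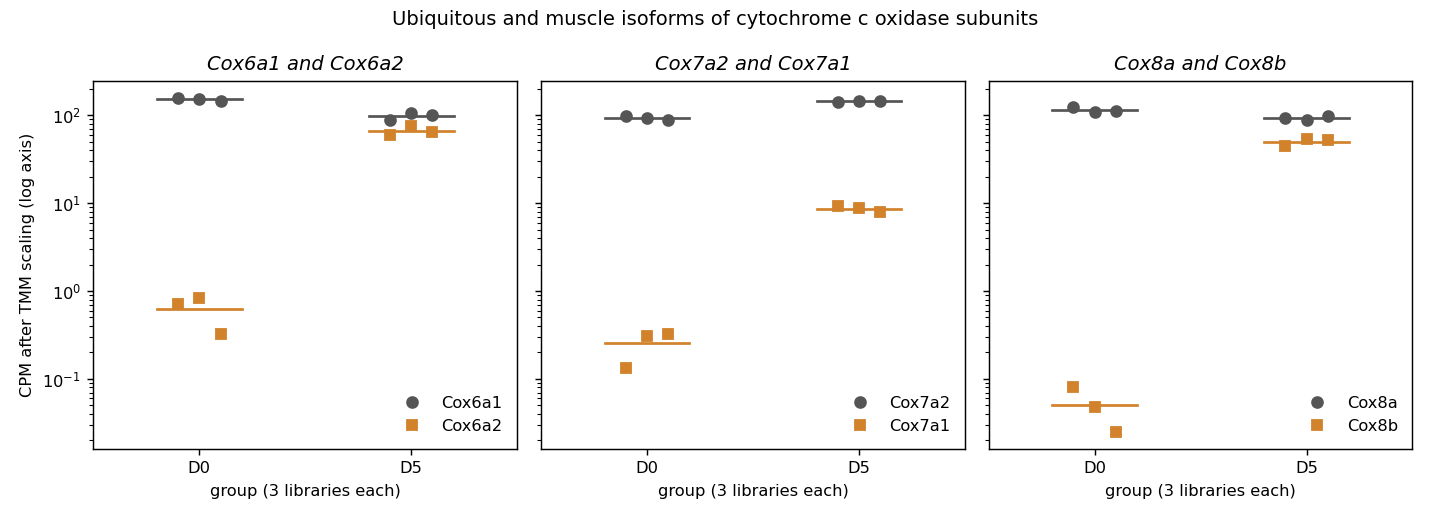
CPM on a log axis in each of 3 D0 and 3 D5 libraries (points, with the group mean as a line) for the broadly expressed isoform (circles) and the muscle isoform (squares) of subunits VIa, VIIa and VIII. *Cox8b* goes from under 0.1 CPM to 45.2 to 53.7 CPM, while *Cox6a1* and *Cox8a* are lower at D5 than at D0 and *Cox7a2* is higher.

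Shares within an isoform family do not depend on the scaling between libraries. In TPM, a level divided by exonic length and scaled to the same total in every library, *Cox6a2* made up 0.468%, 0.564% and 0.229% of the COX6A family at D0 and 41.4%, 42.5% and 39.7% at D5. *Cox8b* made up 0.110%, 0.0746% and 0.0380% of the COX8 family at D0 and 45.6%, 50.9% and 47.9% at D5. *Cox7a1* remained a minor part of its family, with 0.242%, 0.586% and 0.636% at D0 and 10.5%, 9.64% and 8.60% at D5. Each of these shares was higher in 3 of 3 D5 libraries than in any D0 library, and the exact two-sided permutation test gave p = 0.1, the smallest that 3 against 3 allows. Without division by length the mean shares at D5 were 40.4% for *Cox6a2*, 35.1% for *Cox8b* and 5.66% for *Cox7a1*.

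The total of the COX6A family overlapped between the groups. Its summed TPM was 770, 752 and 728 at D0 and 678, 797 and 732 at D5, the D0 range lying within the D5 range. In CPM the mean sum was 152 ± 6.61 at D0 and 165 ± 16.4 at D5 (SD, n = 3, exact permutation p = 0.3). The COX8 family went from 116 ± 8.28 to 143 ± 5.59 CPM, a ratio of 1.24, and COX7A from 93.2 ± 3.97 to 153 ± 2.42 CPM, a ratio of 1.64. For these and the remaining families below the groups did not overlap and the exact permutation p was 0.1.

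**Figure D3:**
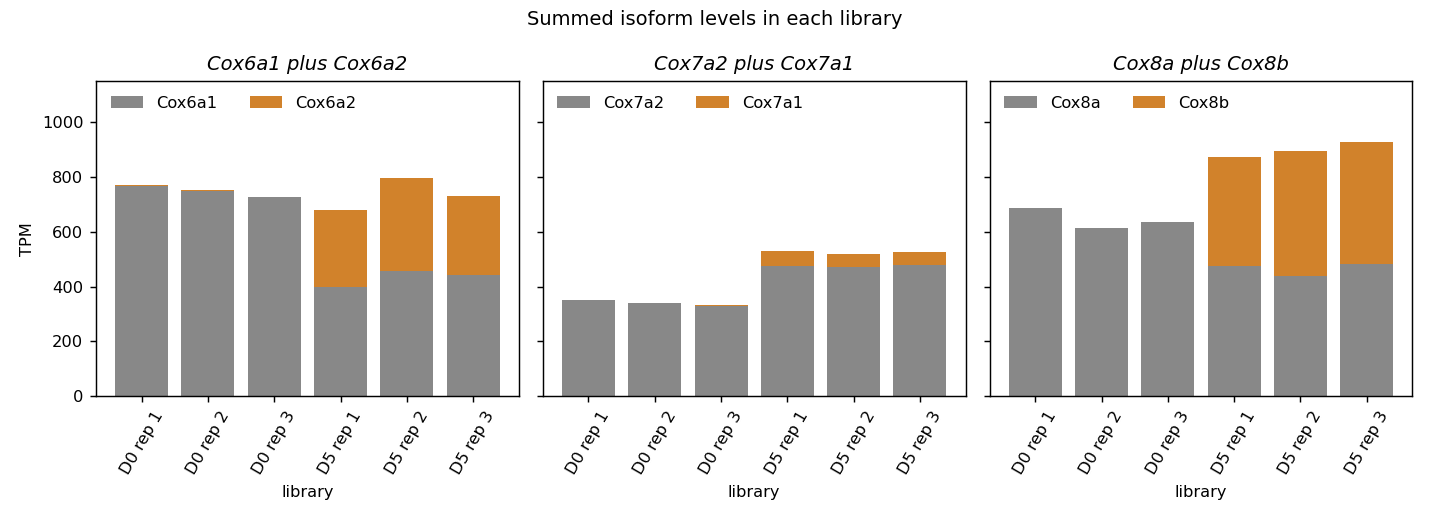
Stacked bars give the TPM of the broadly expressed isoform (grey) and the muscle isoform (orange) in each library. *Cox6a2* and *Cox8b* are a visible part of the bar only in the 3 D5 libraries, and the COX6A total spans 728 to 770 TPM at D0 and 678 to 797 TPM at D5.

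The other isoform families showed no such change of partner. *Cox4i1*, the main form of subunit IV, measured 244, 240 and 222 CPM at D0 and 379, 403 and 392 CPM at D5, and its hypoxia-linked and lung-linked counterpart *Cox4i2* had no count in any library. *Cox6b1* measured 121, 116 and 112 CPM and then 219, 228 and 221 CPM, while the testis form *Cox6b2* had at most 1 count. *Cox7b* measured 99.2, 92.1 and 88.5 CPM and then 210, 195 and 192 CPM, and *Cox7b2* and the testis form *Cox8c* had no count. A count of 0 allows up to 3 counts, or on average 0.0753 CPM in a D0 library and 0.121 CPM in a D5 library, for counting error only. *Ndufa4* measured 133, 130 and 124 CPM at D0 and 213, 216 and 212 CPM at D5, beside 3 to 11 counts for *Ndufa4l2*, a gene known as a target of hypoxia signalling. The 4 expressed genes of this paragraph had log2 fold changes from 0.73 (*Ndufa4* and *Cox4i1*) to 1.09 (*Cox7b*) under TMM, and of 0.17 to 0.53 with ERCC scaling, where none passed the test.

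The c ring of ATP synthase is encoded by 3 genes whose mature proteins are the same, and the shares of 2 of them separated between the groups. *Atp5g3* measured 225, 223 and 201 CPM at D0 and 357, 362 and 346 CPM at D5, and its share of the family TPM went from 54.7% ± 1.01 to 63.5% ± 1.72. *Atp5g1* measured 96.9, 98.0 and 89.5 CPM and then 126, 141 and 137 CPM, with a share of 10.7% ± 0.342 at D0 and 10.7% ± 0.572 at D5 (exact permutation p = 0.9). *Atp5g2* measured 117, 104 and 96.3 CPM at D0 and 109, 105 and 120 CPM at D5, so its groups overlapped, and its share was 34.7% ± 1.33 at D0 and 25.9% ± 1.71 at D5. With a log2 fold change of 0.08 ± 0.05 (SE, edgeR adjusted p = 0.16) it was the subunit without a call. It was called higher without D0 replicate 1 (0.14) or without D5 replicate 2 (0.12), and its estimate was -0.0087 when scaled by total counts. Of the 50-base stretches of *Atp5g2* transcripts, 38.4% occur in another gene, most of them in the transcribed pseudogene *Gm10175*, so its counts depend on how reads with several matches were handled. Without division by length, mean shares at D0 and D5 were 51.9% and 59.1% for *Atp5g3* and 22.8% and 22.4% for *Atp5g1*. For *Atp5g2* they were 25.3% and 18.5%, so the order of *Atp5g1* and *Atp5g2* at D5 depends on the lengths used.

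Complex I, the NADH dehydrogenase where electrons enter, rose as a block. All 36 of its tested subunits were higher at D5 under TMM scaling, against 42.2% of all genes. Their median log2 fold change was 0.87, with a range from 0.23 to 1.82. With ERCC scaling 1 of the 36, *Ndufa13*, was called higher, against 11.1% of all genes. The 7 nuclear core subunits, which include those that hold the flavin and the iron-sulphur clusters of the matrix arm, were all higher, and the 29 tested accessory subunits had a median of 0.88.

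Of the core subunits, *Ndufv1*, which binds NADH and the flavin, rose most, from 81.3, 81.7 and 74.4 CPM to 201, 201 and 188 CPM. Its log2 fold change was 1.32 ± 0.04 (SE, edgeR adjusted p = 1.0e-23). Its neighbour in the same module, *Ndufv2*, measured 94.8, 87.6 and 92.2 CPM at D0 and 153, 147 and 141 CPM at D5. Per length, *Ndufv1* stood below *Ndufv2* in myoblasts (means of 104 and 147 TPM) and above it in myotubes (232 and 212 TPM). *Ndufs1*, the largest subunit of that module, measured 120, 122 and 116 CPM and then 241, 238 and 223 CPM. In the arm that leads to ubiquinone, *Ndufs3* measured 45.6, 45.3 and 44.9 CPM and then 84.1, 94.5 and 87.9 CPM. *Ndufs1* and *Ndufs3* each had a log2 fold change of 0.97, with the D5 libraries above the D0 libraries. *Ndufs7* measured 56.5, 56.0 and 53.1 CPM and then 79.2, 84.4 and 85.0 CPM, and *Ndufs8* 63.1, 61.0 and 57.2 CPM and then 81.7, 89.96 and 86.1 CPM. This pair, which carries iron-sulphur clusters on the way to ubiquinone, had smaller log2 fold changes of 0.59 and 0.51, with every D5 library still above every D0 library.

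Among accessory subunits, *Ndufa13*, also known as GRIM-19, had the largest rise outside the muscle isoforms. It measured 49.7, 47.1 and 43.3 CPM at D0 and 154, 173 and 168 CPM at D5, a log2 fold change of 1.82 ± 0.04 (SE, edgeR adjusted p = 1.2e-25). With ERCC scaling it was 1.27 (adjusted p = 0.0454). *Tssk6* covers 30.0% of its exonic length on the opposite strand, and the part of reads from that gene in its count was not tested. *Ndufb7*, of the membrane arm, measured 48.7, 49.95 and 47.6 CPM and then 115, 140 and 133 CPM, a log2 fold change of 1.41. *Ndufs4*, an accessory subunit of the NADH module, measured 40.9, 39.0 and 36.9 CPM and then 97.3, 101 and 99.6 CPM, a log2 fold change of 1.35. All 3 had D5 libraries clear of the D0 libraries. At the other end stood *Ndufab1*, the mitochondrial acyl carrier protein, which also serves fatty acid synthesis, with 0.23 ± 0.05 (SE, edgeR adjusted p = 4.1e-05). *Ndufc2* (0.30) and *Ndufa8* (0.43) came next to it, and all 3 had negative estimates with ERCC scaling (-0.37, -0.25 and -0.12).

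Complex II, succinate dehydrogenase, belongs to both the citric acid cycle and the respiratory chain. All 4 subunits were higher at D5 under TMM, against 42.2% of all genes. With ERCC scaling none passed the test, where 11.1% of all genes were called higher and 23% lower. *Sdha*, the flavoprotein, measured 187, 193 and 184 CPM at D0 and 309, 298 and 303 CPM at D5. *Sdhb*, which carries the iron-sulphur clusters, measured 88.9, 87.6 and 83.8 CPM and then 107, 111 and 100 CPM. It had the smallest change of the complex, a log2 fold change of 0.29 that was -0.24 with ERCC scaling, against 0.69 for *Sdha*. The membrane anchors measured 70.8, 72.2 and 68.8 CPM and then 109, 105 and 109 CPM for *Sdhc*, and 94.3, 95.4 and 85.9 CPM and then 165, 163 and 162 CPM for *Sdhd*. *Sdhd* had the largest change of the complex at 0.83, and no D5 library of the 4 genes fell within the D0 range.

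Complex III takes electrons from ubiquinol to cytochrome c. All 8 of its nuclear subunits taken by the symbol rule were higher under TMM, against 42.2% of all genes, with a median of 0.88. With ERCC scaling none was called, where 11.1% of all genes were called higher and 23% lower. Cytochrome c1 (*Cyc1*), a catalytic subunit, has a symbol outside the rule and is given with the other genes of the chain. The core proteins measured 140, 143 and 134 CPM and then 194, 196 and 204 CPM for *Uqcrc1*, and 97.4, 99.5 and 93.6 CPM and then 166, 161 and 155 CPM for *Uqcrc2*. *Uqcrfs1*, the Rieske iron-sulphur protein, measured 66.1, 68.3 and 61.5 CPM and then 124, 127 and 121 CPM. Their log2 fold changes were 0.51, 0.73 and 0.92. *Uqcr11*, a small membrane subunit, measured 76.4, 75.1 and 68.3 CPM and then 176, 183 and 186 CPM, the largest rise of the complex at 1.31 ± 0.04 (SE, edgeR adjusted p = 1.4e-23). The smallest was 0.44 for *Uqcrq*.

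Besides the isoform families above, the tested subunits of complex IV were *Cox5a*, *Cox5b*, *Cox6c*, *Cox7c* and *Cox7a2l*. They rose together under TMM, with log2 fold changes of 0.52, 0.68, 0.88, 0.66 and 0.43. *Cox7a2l*, which links complex IV to complex III in supercomplexes rather than being a plain structural subunit, was the lowest of the group. With ERCC scaling none of the 5 passed, where 11.1% of all genes were called higher and 23% lower. On that scale *Cox5a* and *Cox7a2l* were at -0.0027 and -0.11. Over the 15 tested genes of complex IV, 13 were higher and 2 lower under TMM, against 42.2% and 40.8% of all genes. Their median was 0.73, or 0.67 for the 12 left without *Cox6a2*, *Cox7a1* and *Cox8b*.

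In complex V, 16 of 17 tested subunits were higher under TMM, against 42.2% of all genes. With ERCC scaling none was called higher, against 11.1% of all genes. The subunits alpha to delta, of the catalytic head and its stalk, had small changes. *Atp5a1*, the alpha subunit, measured 670, 674 and 628 CPM at D0 and 845, 864 and 852 CPM at D5. *Atp5b*, the catalytic beta subunit, measured 1543, 1545 and 1487 CPM and then 1841, 1851 and 1799 CPM. Although the rises were separated from the replicate spread, the log2 fold changes were 0.38 and 0.26 for these genes, 0.35 for *Atp5c1* (gamma) and 0.34 for *Atp5d* (delta). The 10 tested subunits outside alpha to delta and the c ring, a grouping made after the values were seen, ranged from 0.39 (*Atp5l*) to 1.30 (*Atp5k*) with a median of 0.82. *Atp5k* and *Atp5e*, the e subunit of the membrane part and the epsilon subunit of the stalk, led with 1.30 and 1.22. With ERCC scaling the signs of *Atp5a1*, *Atp5b*, *Atp5c1* and *Atp5d* turned, to values from -0.29 to -0.18.

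Levels were compared per length, in TPM. *Atp5b* was the most abundant subunit mRNA in both groups, with a mean of 1244 TPM at D0 and 1340 TPM at D5. *Cox6a1*, *Atp5a1*, *Cox8a* and *Cox6b1* followed at D0 with 747, 725, 645 and 568 TPM. At D5 the next were *Cox6b1*, *Uqcr11*, *Atp5a1* and *Cox4i1* with 975, 879, 844 and 782 TPM, while *Cox8a* and *Cox6a1* stood at ranks 13 and 19 of the tested subunits. *Cox8b* moved from rank 80, the last, to rank 20, where its mean of 432 TPM was beside the 433 TPM of *Cox6a1*. In TPM these neighbours did not differ beyond their spread, with libraries at 398, 454 and 444 TPM for *Cox8b* and 398, 459 and 441 TPM for *Cox6a1*. That rests on exonic lengths of 360 and 702 bases. In CPM, not divided by length, the D5 means were 50.3 and 98.1, with every *Cox8b* library below every *Cox6a1* library. The ranks likewise depend on the lengths used. TPM shares 1 total among all genes, so a TPM ratio can differ from a TMM-scaled one, and *Atp5g2* went from 218 to 206 TPM.

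**Figure D4:**
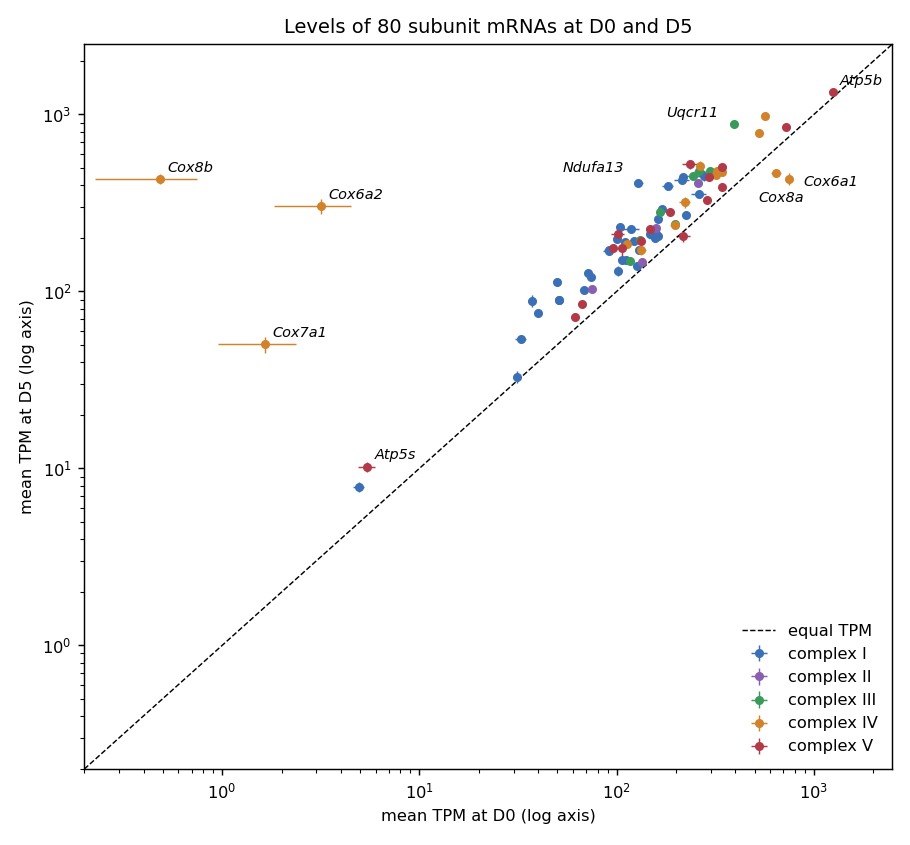
Mean TPM at D5 (vertical) against mean TPM at D0 (horizontal), both on log axes, for 80 subunits coloured by complex, with the SD over 3 libraries as bars and equal TPM as a dashed line. *Cox8b*, *Cox6a2* and *Cox7a1* lie far above the line, *Cox6a1* and *Cox8a* below it, and *Atp5b* is highest on both axes.

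The 10 members that were not tested had few or no counts. *Cox4i2*, *Cox7b2*, *Cox8c* and *Atp5o.1* had none, and *Cox6b2* and *Ndufa4l2* are given above. *Ndufa11b*, *Ndufb4c*, *Ndufs6b* and *Cox6c2* are processed pseudogenes in the GENCODE annotation although their symbols carry no -ps, and each stayed below 0.2 CPM. Of the 8 rows left out for the -ps mark, *Ndufb1-ps* held 565 to 668 counts at D0 and 940 to 999 at D5, and the others at most 12. The rule goes by the mark alone, and whether *Ndufb1-ps* stands for a working subunit gene was not checked. No member carries the symbol *Ndufb1*, so the complex I set has no other row for that subunit. The part of reads shared with other genes in the calls was not tested. Among tested subunits, the share of 50-base stretches found elsewhere was highest for *Atp5g2* (38.4%). It was 25.4% for *Uqcrb*, 22.1% for *Cox7c* and 21.7% for *Ndufs5*. Of the exonic length, 39.0% of *Ndufb6* and 35.6% of *Atp5o* overlap a gene on the other strand. On the same strand it is 19.5% of *Ndufb9* and 12.3% of *Atp5o*.

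Promoters of the subunits were searched for letters of known regulators of this gene group. NRF1 and the GABP complex are transcription factors that have long been tied to nuclear genes of respiration, and YY1 is a further one. Among the 67 tested subunits with a RefSeq entry, CGCANGCGC occurred in 34.3%, against 14.8% of the tested genes and 7.12% of all 27025 genes with an entry. CCGGAAG occurred in 23.9%, 19.5% and 9.93% in the same order, so its share in subunits was near that of tested genes. AAGATGGCG, the YY1 letters, occurred in 10.4%, 3.43% and 1.64%. The muscle-linked E-box letters CAGCTG were in 8.96% of subunit promoters, 18.5% of tested genes and 18.3% of all, and TATAAA in 8.96%, 9.13% and 15.7%. The consensus of MEF2, a factor of muscle genes whose letters can overlap a TATA box, had no match in the 67 windows and was in 2.39% of tested genes and 3.70% of all. The subunits also had a median of 19 CpG dinucleotides per window against 7 over all genes with an entry, and the NRF1, ETS and YY1 letters each contain a CpG. That median of 7 covers tested and untested genes alike, so it does not set the subunits apart from tested genes. A match is a description of the window, not a bound site, and an absent match says nothing of the factor. Among these 67 subunits the median log2 fold change was 0.72 with and 0.86 without the NRF1 letters, 0.85 and 0.75 for the ETS letters, and 0.87 and 0.75 for the YY1 letters. For the E-box letters it was 0.62 with and 0.83 without, and for the TATA box letters 0.86 and 0.77. None of these differences was tested.

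The genes around the chain moved less evenly. All values here and for coenzyme Q, the mitochondrial genome and the regulators below are under TMM scaling, and ERCC-scaled values are not given for them. The counts of these lists stand beside 42.2% of all genes tested called higher and 40.8% called lower. *Cyc1* rose by 0.43 on the log2 scale and *Cycs*, the mobile electron carrier cytochrome c, had an estimate of -0.02 (edgeR adjusted p = 0.70), and the testis form *Cyct* had no count. Assembly factors of complex I were higher for 11, lower for 1 and without a call for 3 of 15, with a median of 0.24; *Ndufaf3* (1.52) and *Ndufaf1* (0.99) rose most and *Ndufaf6* (-0.31) fell. For complexes II and III, 4 of 4 and 6 of 6 were higher, with medians of 0.78 and 1.11, led by *Sdhaf3* (1.07), *Sdhaf4* (0.87), *Uqcc1* (2.01) and *Uqcc3* (1.39). Of 21 tested factors of complex IV, 15 were higher and 5 lower, with *Cox14* (1.72) and *Coa3* (1.41) at the top and *Cox18* (-0.80) and the copper chaperone *Cox17* (-0.73) at the bottom. For complex V, *Atpaf2* (0.40) and *Atpaf1* (0.29) were higher and the inhibitor *Atpif1* (-0.27) was lower, of 4 tested.

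Coenzyme Q carries electrons from complexes I and II to complex III. Of 11 genes of its synthesis, 8 were higher and 2 lower, against 42.2% and 40.8% of all genes. *Coq8a*, an atypical kinase of the pathway, rose from a mean of 1.46 ± 0.117 CPM to 215 ± 3.71 CPM (SD over 3 libraries). Its log2 fold change was 7.19, and that of *Coq9* was 1.88. *Pdss1*, which starts the side chain, fell by 1.53 on the log2 scale and *Coq7* by 0.82.

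Of the 13 protein-coding genes of the mitochondrial genome, 7 were higher, 4 lower and 2 without a call, with a median of 0.15. Over all genes, 42.2% were higher and 40.8% lower, so these counts alone do not set the 13 genes apart. Their summed level was 14096 to 15320 CPM at D0 and 24062 to 26130 CPM at D5. *mt-Nd5* (1.26) and *mt-Nd4* (1.11) rose most and *mt-Atp8* (-1.79) and *mt-Co2* (-0.76) fell most. The 4 called lower (*mt-Co2*, *mt-Co3*, *mt-Atp6* and *mt-Atp8*) had means of at most 17.4 CPM at D0, against 5265 CPM for *mt-Co1*. *mt-Atp8* had 5, 8 and 3 counts in the D5 libraries, and the groups overlapped for *mt-Co3*. *mt-Nd3* and *mt-Nd4l*, without a call, had D0 means of 0.657 and 1.11 CPM. The counts by direction and the median include these low rows. How reads with several matches were handled is not given, and its part in these low levels was not tested. Of 10 known regulators, 3 were higher (*Tfam* 0.22, *Esrra* 0.39 and *Perm1*), 6 lower and 1 without a call. Beside the same shares over all genes, counts in so short a list do not set the regulators apart. *Nrf1* (-0.75) and the GABP subunit *Gabpb1* (-0.73) fell most, and *Ppargc1a*, the coactivator PGC-1alpha, fell by 0.39 on the log2 scale. *Perm1*, a muscle regulator of oxidative genes, was at 0.00793 CPM on average at D0 and 0.522 CPM at D5.

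The spike-ins were the scale on which the libraries of D5 parted. ERCC rows took 0.726% to 0.859% of all counts at D0 and 1.204%, 0.720% and 2.09% in D5 replicates 1, 2 and 3. Scaled by them, those libraries had a median subunit level of 0.09, 0.88 and -0.71 as a log2 ratio to the D0 mean. The subunits therefore sat near, above and below the D0 level in the 3 D5 libraries, a spread that TMM scaling did not show. *Cox8b* (8.56 to 10.2), *Cox6a2* (5.23 to 7.02) and *Cox7a1* (3.43 to 5.15) were above the D0 mean in each D5 library also on this scale, and *Cox6a1* (-2.08 to -0.46) and *Cox8a* (-1.74 to -0.31) below it. Whether the spike-ins or the cells differed between these libraries cannot be told apart.

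**Figure D5:**
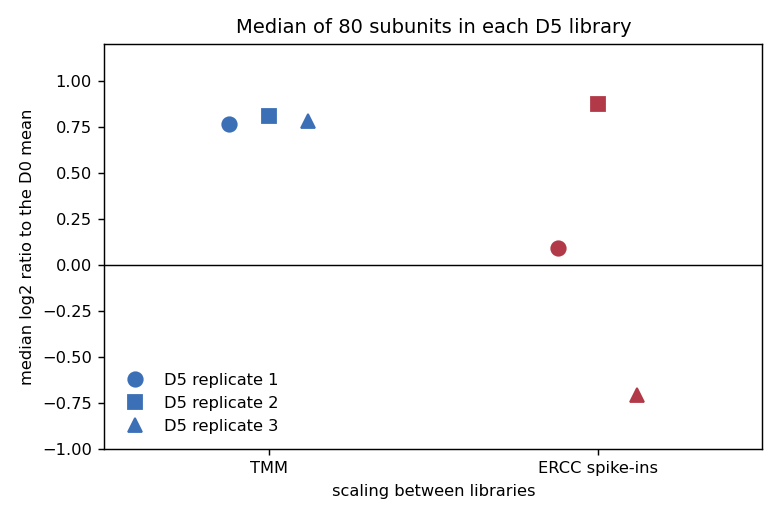
Median over 80 subunits of the log2 ratio to the D0 mean (vertical axis) in each D5 library, with TMM scaling (blue) and ERCC scaling (red), marker shapes giving the replicate. The blue points span 0.77 to 0.81 and the red points -0.71 to 0.88.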

How the data were processed

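RNA was sequenced from 3 D0 and 3 D5 cultures. The authors aligned the reads to GRCm38 and deposited raw counts per gene, made with featureCounts and not normalized. The sample labels and the study's methods name different aligners, and strand setting, read length, handling of reads with several matches and annotation release are not given in the sources used here. Each file also held 92 ERCC rows (0.720% to 2.09% of counts) and a row without a name equal to the column total, both left out of library sizes and tests.

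The members and lists were chosen with earlier results of these data known. From the deposited counts, TMM factors (0.969 to 1.04), CPM, TPM from GENCODE exonic lengths and log2 fold changes came from edgeR (version 4.0.16, under R 4.3.3), whose filterByExpr left 16290 genes. The quasi-likelihood test was adjusted by Benjamini-Hochberg over all of them at 0.05, and each standard error is |log2 fold change| / sqrt(F). Shares and sums of isoform families were compared by two-sided exact permutation tests (scipy 1.17.1) over 8 families. The fit was tested on simulated data in which few genes changed, as many up as down. That setting does not test the scaling between libraries. At this depth 3 counts or fewer in a library was taken as not detected, and intervals and floors cover counting error only. Replicate pairs differed by more than sampling noise, so no library was counted as a copy.

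Values in every library are given for the 8 largest rises and falls among called subunits whose mean reached 100 counts in a group, the isoform families, the core subunits (1 of them is not reported here) and uncalled subunits, and of other lists the 2 largest changes in each direction. Stretches of 50 bases shared between genes, overlap of exons and promoter letters were computed from GENCODE and RefSeq tables. Alternatives were DESeq2 1.42.0, upper-quartile and total-count scaling, ERCC scaling, no filter, leaving out each library, a minimum of 10 counts throughout, a replicate block, and shares from counts. Same-numbered D0 and D5 libraries deviated together with correlations of only 0.033, 0.064 and 0.028.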

Additional observations from a re-analysis of the deposited data

How the results depend on the processing

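DESeq2, upper-quartile scaling, total counts and no filter on low counts each gave 77 higher and 2 lower subunits, and at least 10 counts in every library gave 75 and 2 of 78. Leaving out each library gave 77 to 78 higher and 2 lower, and a median from 0.74 to 0.81. The median was 0.71 with total counts, 0.71 without a filter and 0.76 with at least 10 counts. With ERCC scaling 5560 genes were called (67.4% of them lower, against 49.2%). On that scale 4 subunits were higher and 0 lower, against 11.1% and 23% of all genes, and the median was 0.24. The higher subunits numbered 1 in complex I, 0 in II, 0 in III, 3 in IV and 0 in V. The cause was not tested. Shares at D5 from counts were 5.66% for *Cox7a1* and 35.1% for *Cox8b*, since those transcripts are shorter than their partners. With ERCC scaling 57 subunits kept their sign but lost the call, and these turned sign on the log2 scale: *Atp5a1* -0.18, *Atp5b* -0.29, *Atp5c1* -0.22, *Atp5d* -0.22, *Atp5g1* -0.042, *Atp5g2* -0.51, *Atp5l* -0.16, *Cox5a* -0.0027, *Cox7a2l* -0.11, *Ndufa10* -0.024, *Ndufa12* -0.069, *Ndufa8* -0.12, *Ndufab1* -0.37, *Ndufb10* -0.018, *Ndufc2* -0.25, *Ndufs8* -0.040, *Sdhb* -0.24, *Uqcrc1* -0.063 and *Uqcrq* -0.13. With total counts *Atp5g2* was -0.0087.

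With the replicate number as a replicate block, 77 subunits were higher and 2 lower and the median was 0.80. The numbers were not taken as pairs, since no correlation of same-numbered libraries passed 0.1, although each library correlated best with its own number. Depth limits the D0 values of *Cox8b*, *Cox7a1* and *Cox6a2*, which rest on 6, 31 and 75 counts in all.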
